A study of Mus musculus with 10 samples.

Results

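The D-type cyclins Ccnd1, Ccnd2 and Ccnd3, their kinases Cdk4 and Cdk6, the CDK inhibitors Cdkn1a, Cdkn1b and Cdkn2c, and the transcription factors Myc and E2f1 were followed in mouse BMDMs, macrophages differentiated in culture from bone marrow. These 10 genes were listed by name as controls of entry into and exit from G1, the phase in which a cell commits to division or stays out of it. All 10 have a row among the 55573 genes of the table and all 10 passed the filter on low values. The question was what accompanied the loss of cycling transcripts across the treatments.

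All cells were wild-type BMDMs from female C57BL/6 mice, kept in medium with serum and 50 ng/mL MCSF, a growth factor on which macrophages depend, and RNA was collected after 4 hours. There were 5 groups of 2 libraries each. The vehicle group received the control treatment. The polyU group received 5 μg of a poly-uridine single-stranded RNA complexed with DOTAP, a lipid carrier. The PNPi+dG/rG group received 1 μM ulodesine, which inhibits purine nucleoside phosphorylase (PNP), with 5 μM each of deoxyguanosine and guanosine, and the PNPi+dG/rG+polyU group received both sets of agents. The R848 group received 1 ng/mL of resiquimod, a synthetic ligand of TLR7. TLR7 senses guanosine at one site and single-stranded RNA at another, and PNPi+dG/rG+polyU and R848 are called the TLR7 treatments here. The labels do not say whether vehicle held DOTAP or how many animals gave the marrow, so polyU and its carrier cannot be told apart, and p-values measure only the spread between these libraries.

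Growth factors raise cyclin D, which joins CDK4 or CDK6 and starts the phosphorylation of the retinoblastoma protein. This frees E2F factors, of which E2F1 is the founding member, to switch on the genes of DNA replication. The inhibitors act at separate points: p18INK4C, from Cdkn2c, binds CDK4 and CDK6, while p21, from Cdkn1a, and p27, from Cdkn1b, bind cyclin–CDK complexes. Myc couples growth factor signals to ribosome and nucleotide synthesis and to cell cycle entry, and it binds DNA with its partner Max at the E-box CACGTG. In macrophages the MCSF receptor drives Ccnd1 and Myc, and activating ligands such as those of Toll-like receptors are known to stop proliferation.

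Promoter sequences from RefSeq on GRCm38.p6 were searched because Myc and E2f1 act through short DNA motifs. Entries were found for 7 of the 10 genes, with 10 windows in all, and the 250 bases before each start site were read. The only matches were to the E-box CACGTG, which reads the same on both strands. It occurred at 4 places in the Cdk4 window (chr10:127063285-127063534, plus strand) and at 1 in the Cdk6 window (chr5:3343643-3343892, plus strand). The Cdk6 window lies inside the annotated span of that gene, which starts at chr5:3341485. Both windows are shown here with the E-box in capitals.
Cdk4: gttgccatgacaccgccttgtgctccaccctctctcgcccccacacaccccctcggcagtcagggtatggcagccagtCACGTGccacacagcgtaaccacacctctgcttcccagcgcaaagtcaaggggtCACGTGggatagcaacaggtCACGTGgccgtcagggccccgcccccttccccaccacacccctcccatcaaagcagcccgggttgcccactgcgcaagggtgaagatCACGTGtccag
Cdk6: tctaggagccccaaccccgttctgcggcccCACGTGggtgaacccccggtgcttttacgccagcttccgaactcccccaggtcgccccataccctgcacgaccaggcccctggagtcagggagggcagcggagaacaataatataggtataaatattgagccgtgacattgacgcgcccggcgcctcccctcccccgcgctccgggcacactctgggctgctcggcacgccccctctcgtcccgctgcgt
A CACGTG was found in 6.02% of 32851 windows of that length, and 7 of them, 0.0213%, had 4 or more. No match to the E2F motifs TTTCCCGC, TTTGGCGC and TTTCGCGC was found in the windows of the 7 genes, and 1.53% of all windows held at least 1 of these. TTTGAA, which occurs in the CHR element of cell cycle promoters, and the NF-κB consensus had no match either, against 16.0% and 3.90% of all windows. For E2f1, Cdk6 and Cdkn2c every window lay inside the annotated span of the gene, so the bases before its outermost start were not searched. Ccnd1, Ccnd2 and Myc are named only. A match describes letters in a window and not a bound site.

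Values are CPM, the reads of a gene scaled to a common total of reads on genes in each library. Depth ran from 14128124 to 38392594 reads on genes, so that 3 reads, the smallest amount taken as detectable, were 0.0781 to 0.212 CPM, and the lowest value of any of the 10 genes rested on 46 reads. All 10 macrophage markers, Csf1r and Adgre1 among them, were above 3 reads in every library, with a summed level of 16185 to 19079 CPM. The R848 libraries stood apart in the levels of several markers. The 7 fibroblast markers summed to 139 and 149 CPM there, with 6 of 7 above 3 reads in both libraries, but to between 0.562 and 5.28 CPM in the other 8 libraries. Most of the sum with PNPi+dG/rG+polyU was Pdgfrb, at 3.19 and 4.29 CPM. Col1a1 was at 51.6 and 58.3 CPM with R848 and at most 0.393 CPM elsewhere. The 5 neutrophil markers also summed highest there, at 23.0 and 25.2 CPM against 3.87 to 9.64 CPM, most of it S100a8 at 21.03 and 23.4 CPM. Its partner S100a9 had 1 and 0 reads with R848, Ngp had 0 reads in both R848 libraries, and Ly6g had 0 reads in all 10 libraries. The 5 progenitor markers summed to 15.1 and 16.0 CPM with vehicle, 8.87 to 12.3 CPM with polyU and 8.41 to 8.53 CPM with PNPi+dG/rG. Their sums were 3.73 and 3.96 CPM with PNPi+dG/rG+polyU and 0.585 and 1.07 CPM with R848. Most of the vehicle sum was Kit, at 13.8 and 14.2 CPM. Mpo, Elane and Prtn3 had 0 reads with R848, but they had at most 2 reads in either vehicle library. The 5 endothelial markers, mainly Kdr and Vwf, went from 240 and 246 CPM with vehicle to 143 and 144 CPM with PNPi+dG/rG+polyU and 64.5 and 69.8 CPM with R848. The summed levels of the epithelial, T cell, B cell and dendritic cell markers stayed at or below 5.95 CPM in every library. Both R848 libraries carried the fibroblast transcripts, so no R848 value can be given without them, and their part in the results was not tested.

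Ccnd1 fell by the largest factor of the 10 genes with either TLR7 treatment, Myc and Ccnd3 fell in both, and Cdkn1a rose in both. Ccnd2 passed the test in no comparison. No gene of the 10 passed the test with PNPi+dG/rG alone in limma. With polyU alone 5 of them changed, each by less than 2-fold. Cdkn2c, E2f1 and Cdk4 were reduced more by R848 than by PNPi+dG/rG+polyU. Of these 2 treatments Cdk6 fell only with R848 under the filter used here, and Cdkn1b went in opposite directions in the 2. "Rose" and "fell" are used at an adjusted p under 0.05 in limma, which was fitted to log2 CPM of all 10 libraries and adjusted by Benjamini-Hochberg over 11978 genes. Changes are differences of mean log2 CPM with their standard errors (SE). In bulk RNA, fewer cycling cells and less RNA per cell cannot be told apart.

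**Figure D1:**
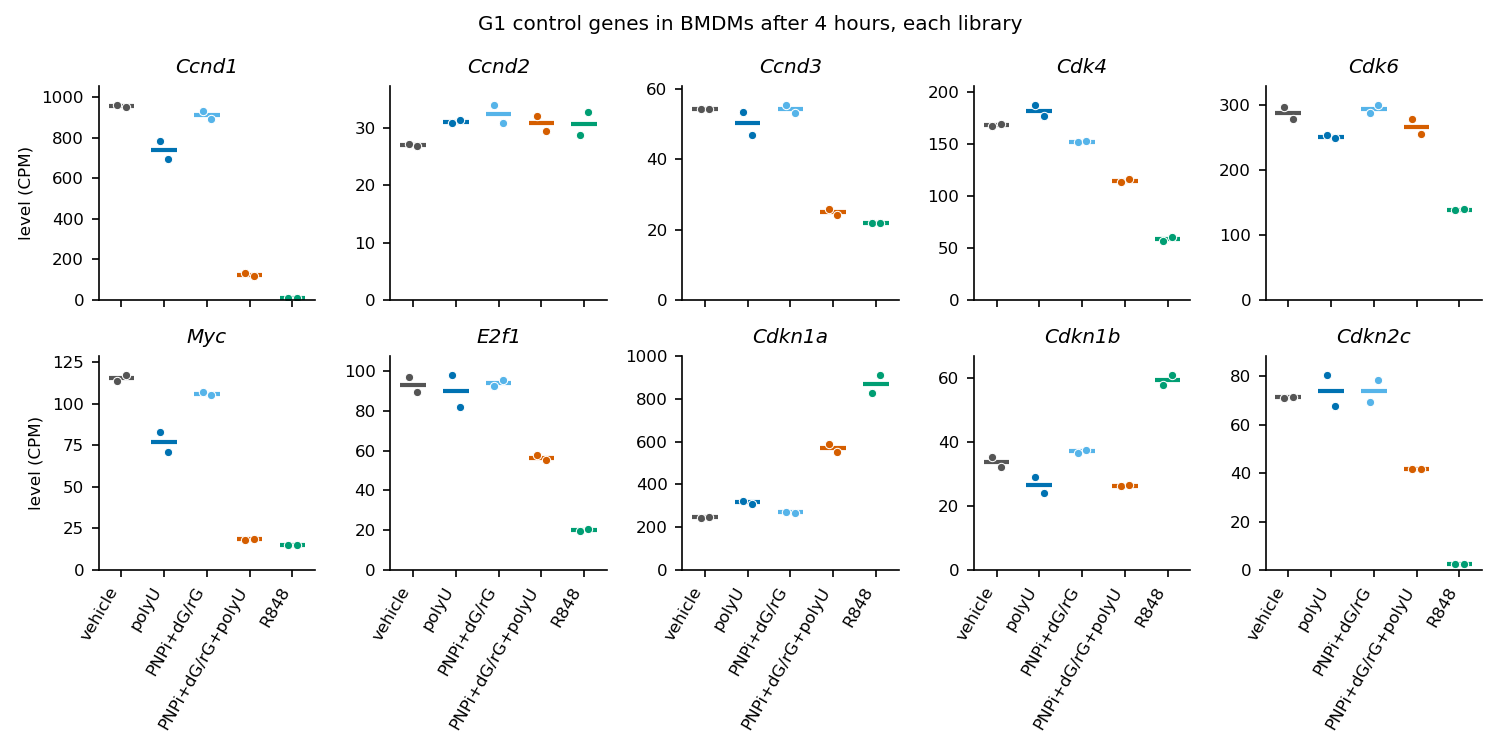
Level of each of the 10 genes in CPM (vertical axes, each from 0) in the 5 treatment groups, with 1 point per library and a bar at the mean of the 2 libraries. Ccnd1 and Myc are low in both PNPi+dG/rG+polyU and R848, Cdkn2c is near 0 only in R848, Cdkn1a is highest in R848, and Ccnd2 stays between 26.9 and 33.9 CPM throughout.

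Against vehicle, 1 of the 10 genes rose and 4 fell with polyU, where 20.6% of all genes tested rose and 18.7% fell. None passed the test in limma with PNPi+dG/rG, against 0.409% of all genes higher and 0.392% lower. An unadjusted p under 0.05 was found for 3 of the 10 and for 1076 of the 11978 genes tested. PNPi+dG/rG+polyU gave 1 gene that rose and 7 that fell, where 22.2% and 46.7% of all genes did so. R848 gave 2 that rose and 7 that fell, beside 19.2% and 62.9% of all genes. With the requirement of at least 2-fold, 7 of the 10 fell with R848 against 30.3% of all genes tested, and 3 fell with PNPi+dG/rG+polyU against 14.3%. At least 2-fold higher were 1 of the 10 in each, Cdkn1a, beside 8.89% and 8.12% of all genes, and none changed as much with polyU, where 3.21% of all genes rose and 0.776% fell at least 2-fold. The median change of the 10 genes was -1.41 on the log2 scale with R848 and -0.64 with PNPi+dG/rG+polyU, while that of all genes tested was -0.50 and -0.22. The median of the tested genes was also set equal in all libraries, called centring below. The counts were then 3 higher and 7 lower with R848 and 2 higher and 6 lower with PNPi+dG/rG+polyU, Ccnd2 being the gene added as higher in both. Without a fold threshold, the share of all genes after centring is not given here or below, so such counts have no background beside them. Centring multiplied every ratio to vehicle by 1.51 with R848 and by 1.16 with PNPi+dG/rG+polyU. It left Ccnd1, Cdkn2c, Myc and E2f1 as the 4 at least 2-fold lower with R848, beside 17.6% of all genes, and Cdkn1a and Cdkn1b as the 2 higher, beside 14.96%. With PNPi+dG/rG+polyU it left Ccnd1 and Myc as the 2 lower, beside 10.4% of all genes, and Cdkn1a as the 1 higher, beside 9.95%. Ccnd3, Cdk4 and Cdk6 were then 1.65-fold, 1.89-fold and 1.37-fold lower with R848, and Ccnd3 was 1.87-fold lower with PNPi+dG/rG+polyU. These comparisons share the vehicle libraries.

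**Figure D2:**
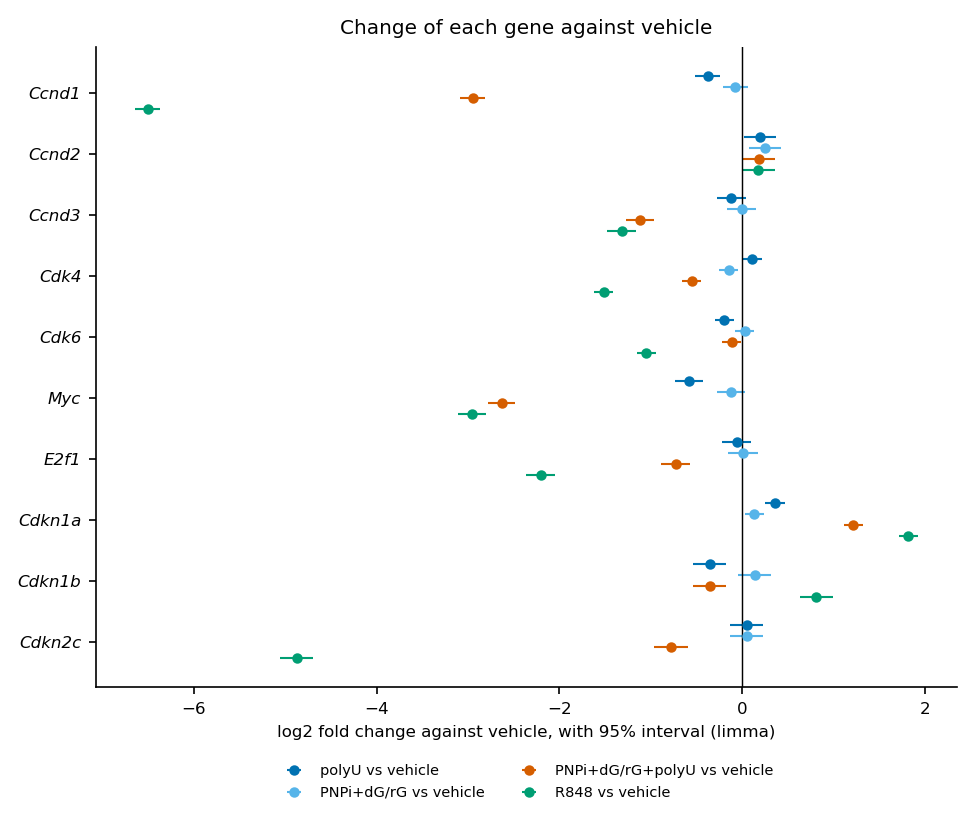
Log2 fold change of each gene against vehicle (horizontal axis) in the 4 treatments, with points for the limma estimate and lines for its 95% interval. The intervals of Ccnd1, Ccnd3, Cdk4, Myc, E2f1 and Cdkn2c lie below 0 for both PNPi+dG/rG+polyU and R848, and Ccnd1 with R848 lies farthest out at -6.51.

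Ccnd1 (ENSMUSG00000070348, chr7:144929931-144939925 on GRCm38, minus strand), the D-type cyclin most tied to growth factor signals, was at 960.2 and 954 CPM with vehicle, 784 and 695 CPM with polyU and 931 and 892 CPM with PNPi+dG/rG. It was at 132 and 116.5 CPM with PNPi+dG/rG+polyU and at 10.4 and 10.7 CPM with R848. The libraries of the 5 groups did not overlap, and their order ran from R848 through PNPi+dG/rG+polyU, polyU and PNPi+dG/rG to vehicle. Ccnd1 fell 91.0-fold with R848 (log2 -6.51, SE 0.06, adjusted p = 2.73e-18) and 7.71-fold with PNPi+dG/rG+polyU (log2 -2.95, adjusted p = 1.42e-14). With polyU it fell by 0.37 on the log2 scale (adjusted p = 0.000303). The difference was -0.07 with PNPi+dG/rG (95% interval -0.21 to 0.07, adjusted p = 0.833). Its exons overlap those of LTO1 on the other strand, which was at 14.9 to 30.6 CPM. The strand setting of the counting is not given in the sources used here, so how far such reads enter the low R848 values is uncertain.

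Ccnd2 (ENSMUSG00000000184, chr6:127125162-127152193, minus strand), a second D-type cyclin, had 27.3 and 26.9 CPM with vehicle and 30.8 and 31.3 CPM with polyU. It had 33.9 and 30.8 CPM with PNPi+dG/rG, 32.1 and 29.5 CPM with PNPi+dG/rG+polyU and 28.7 and 32.8 CPM with R848. Vehicle was lowest, and the 4 treated groups overlapped each other. The differences from vehicle were 0.20, 0.26, 0.18 and 0.18 on the log2 scale in that order, with adjusted p between 0.0561 and 0.259. The intervals allowed at most 0.43 in any treatment. With R848 the adjusted p was 0.0170 without R848 replicate 1, and centring gave 0.78 (adjusted p = 2.94e-07). For PNPi+dG/rG+polyU it was 0.0494 without its replicate 2 and 0.0493 without R848 replicate 1, and 0.40 on the log2 scale when centred.

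Ccnd3 (ENSMUSG00000034165, chr17:47505051-47599691, plus strand), the D-type cyclin with a broad role in blood cells, stood at 54.2 and 54.4 CPM with vehicle, 53.5 and 46.9 CPM with polyU and 55.3 and 53.2 CPM with PNPi+dG/rG. It was at 25.9 and 24.2 CPM in PNPi+dG/rG+polyU and at 21.8 and 21.9 CPM in R848. The latter 2 groups lay below the other 3, which overlapped. Ccnd3 fell 2.17-fold with PNPi+dG/rG+polyU (log2 -1.12, SE 0.07, adjusted p = 1.64e-09) and 2.49-fold with R848 (log2 -1.31, adjusted p = 1.16e-10). Bysl, whose exons overlap it on the other strand, was at 26.9 to 47.1 CPM.

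Set per kilobase of annotated exon, so that genes can be compared, the level of the 3 D-type cyclins summed to 213 and 212 CPM per kb with vehicle, and Ccnd1 made up 95.7% of it in both libraries. The sum was 34.4 and 30.6 CPM per kb with PNPi+dG/rG+polyU, of which Ccnd1 was 81.5% and 80.7%. With R848 it was 7.73 and 8.25 CPM per kb, where Ccnd1 was 28.4% and 27.5%, Ccnd2 39.5% and 42.3% and Ccnd3 32.1% and 30.2%. Ccnd2 was thus the most abundant D-type cyclin transcript per kb in both R848 libraries, at a level of 3.05 and 3.49 CPM per kb against 2.86 and 2.90 CPM per kb with vehicle. The exon length counts every annotated exon of a gene, and the transcript forms in use were not measured.

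**Figure D3:**
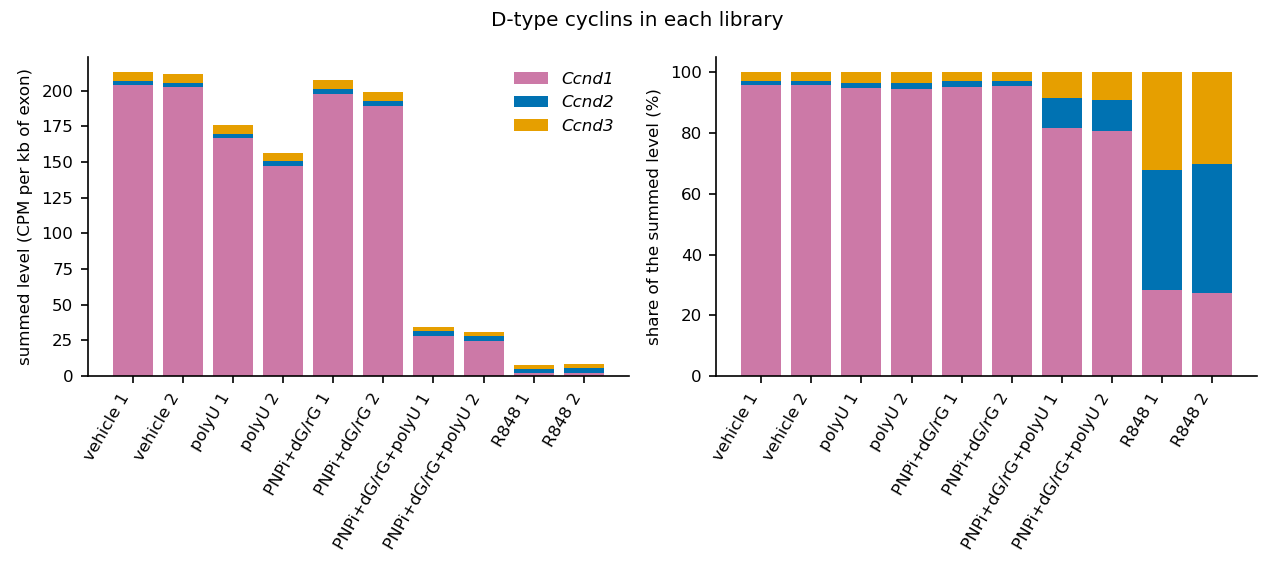
Left, the summed level of Ccnd1, Ccnd2 and Ccnd3 in CPM per kb of exon (stacked bars) in each of the 10 libraries. Right, the share of each gene in that sum in percent, with Ccnd1 at 95.7% in both vehicle libraries and at 28.4% and 27.5% in the R848 libraries.

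Cdk4 (ENSMUSG00000006728, chr10:127063534-127067920, plus strand), a kinase partner of the D-type cyclins, was at 167 and 169.7 CPM with vehicle, 187 and 177 CPM with polyU and 152 and 153 CPM with PNPi+dG/rG. It came to 113 and 116 CPM in PNPi+dG/rG+polyU and 57.0 and 60.8 CPM with R848. No 2 groups overlapped. The gene fell 1.47-fold with PNPi+dG/rG+polyU (log2 -0.55, SE 0.05, adjusted p = 7.58e-08) and 2.86-fold with R848 (log2 -1.52, adjusted p = 1.24e-13). The difference was 0.11 with polyU and -0.15 with PNPi+dG/rG (adjusted p = 0.0882 and 0.292). Tspan31 overlaps its exons on the other strand and was at 73.9 to 103 CPM.

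Cdk6 (ENSMUSG00000040274, chr5:3341485-3531008, plus strand), the other such kinase, had 297 and 278 CPM with vehicle, 253 and 249 CPM with polyU and 287 and 299 CPM with PNPi+dG/rG. It had 278 and 255 CPM with PNPi+dG/rG+polyU but 139 and 139 CPM with R848. Only R848 stood far from the others. Cdk6 fell 2.07-fold with R848 (log2 -1.05, SE 0.05, adjusted p = 1.29e-11; 1.37-fold when centred) and 1.14-fold with polyU (log2 -0.19, adjusted p = 0.00580), the latter not without vehicle replicate 1 (adjusted p = 0.0746). The difference of -0.11 with PNPi+dG/rG+polyU had an adjusted p of 0.0593, and of 0.0408 when no gene was filtered out. It was -0.16 without vehicle replicate 2 and -0.17 without PNPi+dG/rG+polyU replicate 1. After centring it had the other sign, 0.10 (adjusted p = 0.0849). Per kb of exon, Cdk4 was above Cdk6 in every group, by the mean level at 51.8 against 20.5 CPM per kb with vehicle and 18.1 against 9.93 CPM per kb with R848.

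Cdkn1a (ENSMUSG00000023067, chr17:29090976-29100727, plus strand), which encodes p21, had 244 and 247 CPM with vehicle, 324 and 307 CPM with polyU and 272 and 267 CPM with PNPi+dG/rG. It was at 589 and 553 CPM with PNPi+dG/rG+polyU and at 826 and 909 CPM with R848. The 5 groups did not overlap. It rose 3.53-fold with R848 (log2 1.82, SE 0.05, adjusted p = 1.17e-14), 2.33-fold with PNPi+dG/rG+polyU (log2 1.22, adjusted p = 3.60e-12) and 1.29-fold with polyU (log2 0.36, adjusted p = 2.96e-05). PNPi+dG/rG gave a difference of 0.14 with an adjusted p of 0.329, and of 0.00570 when no gene was filtered out. Per kb of exon, p21 transcripts were the most abundant of the 3 inhibitors in every group, at 69.04 CPM per kb with vehicle and 244 CPM per kb with R848.

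Cdkn1b (ENSMUSG00000003031, chr6:134920401-134925513, plus strand), which encodes p27, was at 35.2 and 32.1 CPM with vehicle, 28.9 and 24.1 CPM with polyU and 36.5 and 37.6 CPM with PNPi+dG/rG. It was at 26.1 and 26.5 CPM in PNPi+dG/rG+polyU, inside the range of the polyU libraries. With R848 it was at 57.8 and 60.7 CPM, above every other library. It rose 1.76-fold with R848 (log2 0.82, SE 0.08, adjusted p = 2.40e-07) and fell 1.28-fold both with polyU (log2 -0.35, adjusted p = 0.00378) and with PNPi+dG/rG+polyU (log2 -0.35, adjusted p = 0.00165). The fall with polyU did not pass without polyU replicate 2 (adjusted p = 0.0663), and that with PNPi+dG/rG+polyU was -0.14 with an adjusted p of 0.131 after centring.

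Cdkn2c (ENSMUSG00000028551, chr4:109660876-109667189, minus strand), which encodes p18INK4C, was at 71.1 and 71.4 CPM with vehicle, 80.3 and 67.8 CPM with polyU and 69.4 and 78.5 CPM with PNPi+dG/rG. It was at 41.6 and 41.7 CPM with PNPi+dG/rG+polyU and at 2.44 and 2.42 CPM with R848, which were 46 and 79 reads. The first 3 groups overlapped and the last 2 stood below them. An inhibitor by name, Cdkn2c fell 29.3-fold with R848 (log2 -4.87, SE 0.09, adjusted p = 8.96e-17) and 1.71-fold with PNPi+dG/rG+polyU (log2 -0.78, adjusted p = 8.12e-07). The 3 inhibitors therefore did not move together with R848, since Cdkn1a and Cdkn1b rose. The changes with polyU and PNPi+dG/rG were both 0.05 (intervals -0.13 to 0.23).

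Myc (ENSMUSG00000022346, chr15:61985391-61990374, plus strand) was at 114 and 117 CPM with vehicle, 83.4 and 71.3 CPM with polyU and 107 and 105 CPM with PNPi+dG/rG. It was at 18.3 and 18.9 CPM with PNPi+dG/rG+polyU and at 14.9 and 14.8 CPM with R848. No groups overlapped, and both TLR7 treatments lay far below the other 3. The gene fell 7.77-fold with R848 (log2 -2.96, SE 0.07, adjusted p = 2.81e-15), 6.20-fold with PNPi+dG/rG+polyU (log2 -2.63, adjusted p = 2.62e-14) and 1.497-fold with polyU (log2 -0.58, adjusted p = 1.06e-05). PNPi+dG/rG gave a difference of -0.12 (adjusted p = 0.689).

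E2f1 (ENSMUSG00000027490, chr2:154559407-154569892, minus strand), which drives replication genes, had 96.9 and 89.6 CPM with vehicle, 97.9 and 82.1 CPM with polyU and 92.6 and 95.4 CPM with PNPi+dG/rG, and these 3 groups overlapped. It had 57.8 and 55.1 CPM with PNPi+dG/rG+polyU and 19.8 and 20.7 CPM with R848. E2f1 fell 4.60-fold with R848 (log2 -2.20, SE 0.08, adjusted p = 2.10e-13) and 1.65-fold with PNPi+dG/rG+polyU (log2 -0.72, adjusted p = 4.11e-07). Its differences with polyU and PNPi+dG/rG were -0.06 and 0.01 (adjusted p = 0.598 and 0.996).

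Adding PNPi+dG/rG to polyU changed 7 of the 10 genes. Compared with polyU, Ccnd1 fell 5.95-fold, Myc 4.14-fold and Ccnd3 2.00-fold, Cdkn2c, E2f1 and Cdk4 fell by 0.83, 0.67 and 0.66 on the log2 scale, and Cdkn1a rose 1.81-fold. These made 1 gene higher and 6 lower, beside 15.8% and 47.5% of all genes tested, and all 7 had an adjusted p of at most 1.54e-06. Ccnd2, Cdk6 and Cdkn1b differed by -0.01, 0.08 and -0.00, with adjusted p of 0.904, 0.157 and 0.989. After centring these 3 were 0.24, 0.34 and 0.25 higher and passed the test, which gave 4 higher and 6 lower. Without PNPi+dG/rG+polyU replicate 2, Cdk6 was 0.15 higher (adjusted p = 0.0416).

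The interaction asks whether PNPi+dG/rG acted differently in the presence and in the absence of polyU. It passed the test for the same 7 genes, 1 in the higher and 6 in the lower direction, where 11.8% and 38.9% of all genes tested did. The sizes were -2.50 for Ccnd1 (SE 0.09, adjusted p = 3.17e-11), -1.93 for Myc (SE 0.10, adjusted p = 4.47e-10) and -0.9996 for Ccnd3. Cdkn2c had -0.88, E2f1 -0.68, Cdk4 -0.52 and Cdkn1a 0.72. For Ccnd2, Cdk6 and Cdkn1b the interaction was -0.27, 0.05 and -0.14 (adjusted p = 0.0696, 0.541 and 0.344). Centring gave 2 higher and 6 lower, with Cdk6 added at 0.34.

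PNPi+dG/rG+polyU and R848 were then compared directly. In PNPi+dG/rG+polyU, 7 of the 10 genes were higher and 2 lower, beside 53.9% and 16.9% of all genes tested, and the median was 0.63 against 0.31 for all genes. At least 2-fold, 3 were higher and 1 lower, beside 16.9% and 3.86% of all genes. These were Cdkn2c, 17.1-fold higher (adjusted p = 5.60e-15), Ccnd1, 11.8-fold higher (adjusted p = 7.46e-15), E2f1, 2.79-fold higher, and Cdkn1b, 2.25-fold lower. Cdk4 and Cdk6 were 1.95-fold and 1.91-fold higher, and Cdkn1a was 1.52-fold lower. Myc differed little between the 2 treatments, being 1.25-fold higher in PNPi+dG/rG+polyU (log2 0.33, SE 0.07, adjusted p = 0.000758), and -0.056 on the log2 scale with an adjusted p of 0.487 after centring. Ccnd3 was 0.20 higher (adjusted p = 0.0261) but 0.19 lower when centred (-0.19, adjusted p = 0.0307). Its adjusted p was also 0.155 without PNPi+dG/rG+polyU replicate 1, 0.0824 without R848 replicate 1 and 0.0697 without R848 replicate 2. Ccnd2 differed by 0.00 (interval -0.17 to 0.18), and by -0.38 when centred. With centring the counts were 5 higher and 4 lower.

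Most of the genes that act with or after these 10 in the cell cycle fell with R848. Of 22 other G1/S control genes tested, 20 fell and 2 rose with R848, with a median of -1.95 on the log2 scale. Of all genes tested, 62.9% fell and 19.2% rose with R848, with a median of -0.50. Of 25 S-phase genes and 25 G2/M genes all fell, with medians of -4.03 and -6.70, and both lists fell whole after centring too, while the G1/S counts became 18 lower and 4 higher. Among the G1/S genes, cyclin E2 (Ccne2), which activates CDK2 at the start of replication, fell 97.1-fold, from 54.5 and 43.0 CPM to 0.478 and 0.521 CPM. E2f2 went from 60.49 and 60.01 CPM to 0.159 and 0.276 CPM, and E2f7, a repressor of E2F targets, from 34.1 and 28.0 CPM to 0.0532 and 0.214 CPM. The 2 that rose were Cdkn2b, the gene of the CDK4/6 inhibitor p15INK4B, from 0.898 and 0.899 to 3.45 and 3.18 CPM, and E2f5, from 12.0 and 11.5 to 17.6 and 18.3 CPM.

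In the S-phase list, Rrm2, a subunit of ribonucleotide reductase, fell 134-fold with R848, from 124 and 114 CPM to 0.850 and 0.919 CPM. Mcm10, a replication initiation factor, went from 51.2 and 49.3 CPM to 0.690 and 0.184 CPM, and Ung, a uracil-DNA glycosylase, from 19.3 and 16.2 CPM to 0.159 and 0.153 CPM. In the G2/M list, Anln, an actin-binding protein of cytokinesis, went from 123 and 110 CPM to 0.637 and 0.306 CPM, and Hmmr from 57.5 and 45.3 CPM to 0.159 and 0.337 CPM. Cyclin A2 (Ccna2) fell from 144 and 115 CPM to 0.744 and 0.582 CPM. Values this low rest on few reads, and their folds are only roughly known. In the same R848 libraries the fibroblast markers summed to 139 and 149 CPM, whose part in these counts was not tested.

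These lists moved less under PNPi+dG/rG+polyU. Of all genes tested, 46.7% fell and 22.2% rose, with a median of -0.22. Among the other G1/S genes 18 fell and 2, again Cdkn2b and E2f5, rose, with a median of -0.82. In the S-phase list 23 of 25 fell, with a median of -0.80, and in the G2/M list 18 of 25, with a median of -0.55. The G2/M count was 11 without PNPi+dG/rG+polyU replicate 1 and 8 after centring. Ccne2 fell 4.11-fold to 12.7 and 10.97 CPM, Rrm2 2.32-fold to 52.6 and 49.7 CPM and Ung 5.15-fold to 3.82 and 3.10 CPM, while Ccna2 fell 1.54-fold to 79.9 and 87.0 CPM. Compared directly, all 25 S-phase and all 25 G2/M genes were higher in PNPi+dG/rG+polyU than in R848, with medians of 3.22 and 5.87 on the log2 scale. In that comparison 53.9% of all genes tested were higher, with a median of 0.31. None of the 3 lists had a gene past the test in limma with PNPi+dG/rG, where 0.409% of all genes tested rose and 0.392% fell. In the lists 1, 1 and 0 genes had an unadjusted p under 0.05, beside 1076 of the 11978 genes tested.

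**Figure D4:**
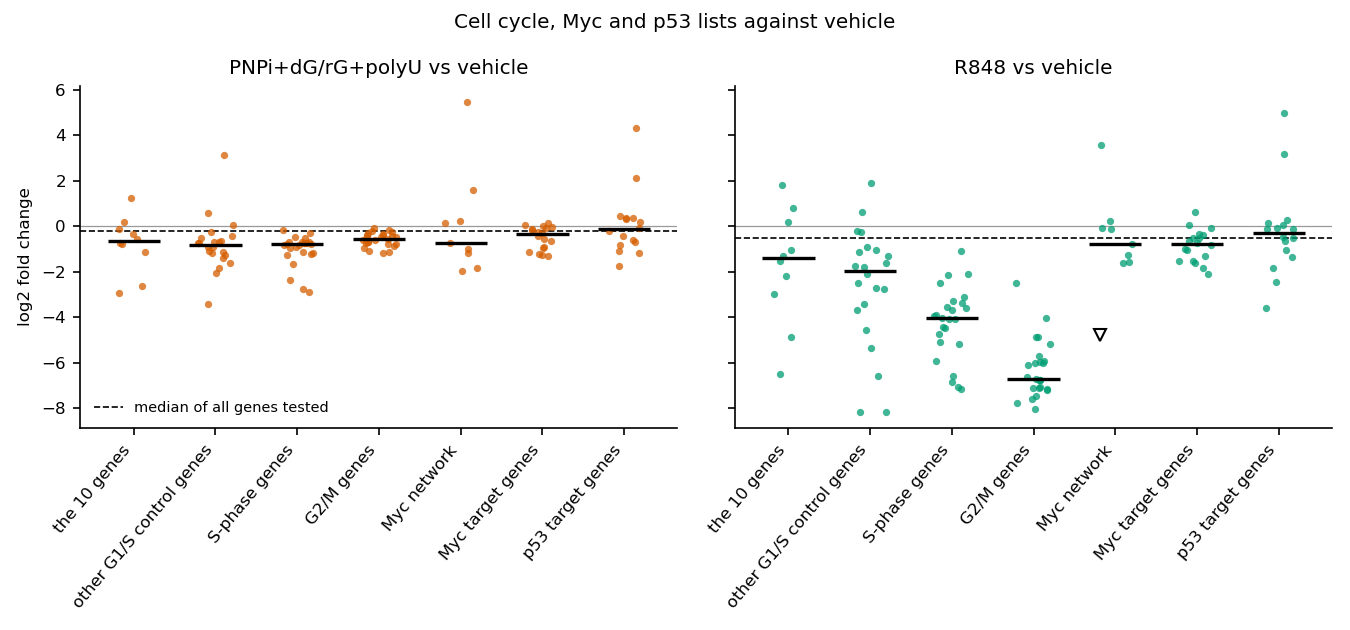
Log2 fold change of each gene (points) by list for PNPi+dG/rG+polyU and R848 against vehicle, with a bar at the list's median and a dashed line at the median of all genes tested, -0.22 and -0.50. The S-phase and G2/M lists lie lowest with R848, at medians of -4.03 and -6.70, and the open triangle marks Mxd3, which had 0 reads in both R848 libraries and is drawn at its bound.

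Under polyU alone, 6 other G1/S genes, 7 S-phase genes and 2 G2/M genes, Mki67 and Cenpe, fell, and none rose. These were 27.3%, 28.0% and 8.0% of the genes tested in each list. Of all genes tested 18.7% fell and 20.6% rose, so the G2/M share was below that of all genes. The counts in the lists were not firm. Without vehicle replicate 1 they were 3, 3 and 0, without polyU replicate 1 the G1/S count was 10, and without polyU replicate 2 the S-phase and G2/M counts were 3 and 1, with 1 S-phase gene higher. The G2/M count was 4 without R848 replicate 1 or 2.

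The partners and antagonists of Myc moved in both directions. Of 9 such genes tested, 2 rose and 5 fell with R848 and 3 rose and 4 fell with PNPi+dG/rG+polyU, with medians of -0.77 and -0.75. Of all genes tested 19.2% rose and 62.9% fell with R848, and 22.2% rose and 46.7% fell with PNPi+dG/rG+polyU. After centring 4 were higher and 5 lower with R848. Under polyU, Max, Mxd1, Mlx and Mycl rose and Mxi1, Mnt and Mga fell, where 20.6% and 18.7% of all genes tested did so. PNPi+dG/rG gave no call and no unadjusted p under 0.05, the latter beside 1076 of the 11978 genes tested. Mycl, a relative of Myc, rose from 1.12 and 0.618 CPM with vehicle to 41.7 and 32.9 CPM with PNPi+dG/rG+polyU and 10.1 and 9.43 CPM with R848. Mxd1, which competes with Myc for Max, rose 2.99-fold with PNPi+dG/rG+polyU and 1.17-fold with R848 (adjusted p = 0.0320), and the latter count of genes that rose was 1 in place of 2 without vehicle replicate 1, vehicle replicate 2 or R848 replicate 1. Max itself rose by 0.21 with PNPi+dG/rG+polyU. The genes that fell with both were Mxi1, Mxd4, Mnt and Mga, of which Mnt, another repressor that pairs with Max, went from 91.9 and 91.2 CPM to 23.4 and 22.8 CPM with PNPi+dG/rG+polyU and 29.95 and 32.2 CPM with R848. Mxi1 fell 3.53-fold and 3.03-fold and Mxd4 1.68-fold and 2.39-fold. Mxd3 fell with R848, from 4.55 and 4.21 CPM to 0 reads in both libraries, so that it was at least 27.5-fold lower, taking 3 reads per library as the floor.

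Among 18 genes known as Myc targets in ribosome and nucleotide synthesis, 14 fell and 1, Ldha, rose with R848, with a median of -0.78. Of all genes tested 62.9% fell with R848, with a median of -0.50, so that the count is not far from that of all genes. Dkc1 fell 4.32-fold, Srm 3.61-fold and Ppat 3.07-fold, Dkc1 from 46.8 and 43.4 CPM to 11.6 and 9.37 CPM. With PNPi+dG/rG+polyU 12 fell, with a median of -0.35, where 46.7% of all genes fell with a median of -0.22, and Odc1 rose (log2 0.14, adjusted p = 0.0497). The rise of Odc1 did not pass when any 1 of vehicle replicate 1, polyU replicate 1 or 2, PNPi+dG/rG replicate 1 or 2, PNPi+dG/rG+polyU replicate 2 or R848 replicate 1 or 2 was left out. With polyU, Ldha rose and Cad, Nolc1, Polr1b, Ppat and Mybbp1a fell, where 20.6% and 18.7% of all genes tested did so. The count that fell was smaller without polyU replicate 2. After centring the rise of Ldha with polyU did not pass. After centring the counts were 10 lower and 4 higher with R848 and 9 lower and 5 higher with PNPi+dG/rG+polyU. Of the 18, 8 fell at least 2-fold with R848 and 4 with PNPi+dG/rG+polyU, where 30.3% and 14.3% of all genes did.

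Because Cdkn1a is a classical target of p53, 16 other p53 target genes were read beside it. With R848 Fas, Btg2 and Bax rose and 9 fell, with a median of -0.29, beside 19.2% of all genes that rose, 62.9% that fell and a median of -0.50. The 16 genes were thus near the background, and after centring 8 were higher and 5 lower. With PNPi+dG/rG+polyU 6 rose and 7 fell, with a median of -0.13, beside 22.2% and 46.7% of all genes and a median of -0.22. Fas, a death receptor, rose from 1.74 and 1.57 CPM with vehicle to 30.5 and 35.5 CPM with PNPi+dG/rG+polyU and 51.0 and 53.3 CPM with R848. Btg2, which restrains proliferation, rose from 11.4 and 9.94 CPM to 46.8 and 45.2 CPM and 95.05 and 99.05 CPM. Sesn1 fell 3.38-fold with PNPi+dG/rG+polyU and 12.1-fold with R848, from 36.3 and 37.8 CPM to 3.88 and 2.42 CPM in the latter. With polyU 8 rose and 3, Sesn2, Plk2 and Gdf15, fell. These were 50.0% and 18.75% of the list, beside 20.6% and 18.7% of all genes tested. The count that fell was smaller without vehicle replicate 1 or 2, polyU replicate 1 or PNPi+dG/rG replicate 1 or 2. With PNPi+dG/rG only Fas rose (log2 0.61, adjusted p = 0.0300).

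The genes whose log2 CPM followed each of the 10 most closely are given as a description over the 10 libraries, among the 8459 tested genes that averaged 10 CPM or more. The libraries share their treatments, so high correlations are common. Ccnd1 was most like Dnmt1 (Pearson r = 0.9996), Lipa and Slc43a2. For Ccnd3 the nearest were Pdp1 (0.997), Slc20a2 and Zcchc24, and for Ccnd2, Ubac2 (0.875), Dynll1 and Cdk8. Cdk4 was nearest to Tpm1 (0.998), Mcoln3 and Syngr1, and Cdk6 to Diaph3 (0.992), Armcx2 and Plekha2. The closest to Cdkn1a were Ift57 (0.997), Spata13 and Lcp2, and to Cdkn1b, Ttc39b (0.986), Gpalpp1 and Zfp568. Cdkn2c was nearest to Rad54l (0.9998), Mcm5 and Ccnf, and E2f1 to Ung (0.999), Rbbp7 and Mcm3, while Myc was nearest to Capn2 (0.999) and Inpp5d.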

How the data were processed

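RNA-seq was done on the BMDMs described above. The authors made KAPA stranded mRNA libraries, sequenced single 50 bp reads, demultiplexed with bcl2fastq 2.19.1.403, mapped to GRCm38 with STAR 2.27a and counted with the Ensembl 97 annotation. They deposited CPM with an offset of 0.0001 on every value. CPM does not correct for induced genes that take up reads. Depth and the reads of each gene were recovered from the steps between low values. Changes between groups were tested on the deposited CPM and not on counts, and floors cover counting error only. The intervals of log2 changes come from limma's estimate of the spread between libraries.

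limma 3.58.1 in R 4.3.3 (statmod 1.5.0) was fitted to log2 of the deposited values of all 10 libraries, with 1 mean per group and eBayes with trend and robust estimates. A gene was tested if it had 1 CPM or more in 2 or more libraries. The 2 libraries of each group differed by more than sampling noise, with 15.8% to 26.3% of genes past the 5% level in a chi-square test on the recovered reads. Positions and exon lengths are from GENCODE M21 (Ensembl 96), where 55480 of 55573 identifiers have a symbol. Lengths, correlations and motifs were computed in numpy 2.4.6 and pandas 2.3.3. The method was tested on simulated data.

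The 10 genes and the lists were chosen with earlier results of these data known. From each list at most 3 genes were named, those with the largest change among genes past the test and 2-fold in R848 against vehicle with a mean of at least 10 CPM in 1 of the 2 groups. Genes of a list were also named where a count was 5 or fewer, and 3 genes were named for likeness to each of the 10, of which 1 is not reported here. Alternatives were pseudocounts of 0.1 and 1, no filter, a filter on the mean, median centring, plain eBayes, a fit of the compared groups only, a block for the replicate number, and omission of each library in turn.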

Additional observations from a re-analysis of the deposited data

Results flagged for a closer look

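For 7 of the 10 genes the effect of PNPi+dG/rG differed between cells with and without polyU, by limma's test of that difference. The effect with polyU minus that without was -2.50 on the log2 scale for Ccnd1, -1.93 for Myc, -0.9996 for Ccnd3, -0.88 for Cdkn2c, -0.68 for E2f1, -0.52 for Cdk4 and 0.72 for Cdkn1a. All 7 passed at an adjusted p of at most 8.69e-05, beside 11.8% of all genes tested in the higher direction and 38.9% in the lower. With 2 libraries per group no single library could be tested as standing apart from its group.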

How the results depend on the processing

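Changes of single genes among the 10 that passed the test were recomputed 810 times over all alternatives, in which 801 kept their direction and call, 7 lost the call and 2, Ccnd3 and Myc in PNPi+dG/rG+polyU against R848, changed sign with centring. Changes that did not pass the test were recomputed 450 times, in which 12 gained a call in the same direction and 22 had the other sign, 8 of them with centring and 14 with other alternatives. The count of the 10 genes past the threshold with PNPi+dG/rG against vehicle, 0, became 1 when no gene was filtered out. Median centring, which shifts every gene of a library alike, gave the opposite sign for Ccnd3, -0.19, and Myc, -0.056, in PNPi+dG/rG+polyU against R848. It did so with a call for Ccnd2, -0.38, in the same comparison, and for Ccnd2, 0.24, and Cdkn1b, 0.25, in PNPi+dG/rG+polyU against polyU. Centring also moved the share of higher genes among those called at least 2-fold with R848 from 22.7% to 46.0%, over all genes. Ccnd3 in PNPi+dG/rG+polyU against R848 also lost its call with no filter (adjusted p = 0.172), and Cdk6 gained one in PNPi+dG/rG+polyU against vehicle (adjusted p = 0.0408). Leaving out a library leaves 1 in its group, which is then assumed to vary like the others. Plain eBayes, the filters, the replicate block and a fit of the compared groups only leave each estimate as it was. So does omitting a library outside the groups compared. Such alternatives, which make up many of the 810 and 450, could change a call but not a direction.

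The replicate numbers shared by the groups did not pair the libraries, since the correlation of the deviations of same-numbered libraries had a median of -0.02 over 10 pairs of groups, from -0.29 to 0.11. With the replicate number as a block, no call of the 10 genes changed, and 4688 genes in place of 4698 were called at least 2-fold with R848. Depth limits genes under about 0.212 CPM, which includes several list genes with R848.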
